A study of Mus musculus with 8 samples.

Results

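The genes described here are the matrix metalloproteases (Mmp), the membrane-anchored and secreted ADAM proteases (Adam, Adamts), the ADAMTS-like proteins (Adamtsl) and the tissue inhibitors of metalloproteases (Timp). They were taken by symbol, as every probe whose annotated symbol begins with Mmp, with Timp or Adam and a digit, or with Adamts, which gave 103 of the 25697 probes on the array and 69 of 16593 genes. The cells were primary vascular smooth muscle cells of the carotid artery of male C57bl6 mice, with 4 arrays labelled knockout (KO) and 4 labelled wild type (WT) for PMCA4, a calcium export pump of the plasma membrane encoded by Atp2b4. Both genotypes were synchronised with respect to serum, then given serum and PDGF-BB, a growth factor that drives smooth muscle division, stained with Hoechst and sorted for early G1. RNA of each sample was measured on 1 Illumina bead array, and a detection p under 0.05, taken here as above background, was reached by 11697 to 11987 probes of an array. Which part of Atp2b4 was deleted, and in which cells, is not stated in the labels, nor whether the replicates were separate mice or cultures. The p-values therefore describe the scatter among these samples only, and that scatter may be technical.

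Mmp, Adam and Adamts enzymes share a zinc-dependent catalytic domain and are made as inactive precursors. Secreted Mmps and Adamts enzymes cut collagens, proteoglycans and glycoproteins of the matrix, whereas Adams at the cell surface mainly release the outer part of other membrane proteins, such as growth factor precursors. Timps bind the active site of these enzymes and block it. In the artery wall these genes are known for the turnover of elastin, collagen and versican and for the migration of smooth muscle cells.

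A run of Mmp genes lies side by side on chromosome 9, and the bases in front of the 4 that were above background are shown because 2 of these genes passed the test below and 2 did not, while all 4 hold the same short motif there. The stretches are the 150 bases before the annotated start, from RefSeq (GRCm38.p6, plus strand), at chr9:7272364-7272513 for Mmp13, chr9:7445672-7445821 for Mmp3, chr9:7463991-7464140 for Mmp1a and chr9:7502192-7502341 for Mmp10. Capitals mark the motif TGANTCA, the binding sequence of AP-1 (Fos and Jun dimers), which reads the same on both strands.
Mmp13: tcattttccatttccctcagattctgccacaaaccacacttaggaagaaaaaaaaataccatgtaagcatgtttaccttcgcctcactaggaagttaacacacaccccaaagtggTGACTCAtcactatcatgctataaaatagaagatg
Mmp3: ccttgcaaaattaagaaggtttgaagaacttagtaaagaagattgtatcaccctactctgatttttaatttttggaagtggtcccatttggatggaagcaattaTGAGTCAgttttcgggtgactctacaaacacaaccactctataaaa
Mmp1a: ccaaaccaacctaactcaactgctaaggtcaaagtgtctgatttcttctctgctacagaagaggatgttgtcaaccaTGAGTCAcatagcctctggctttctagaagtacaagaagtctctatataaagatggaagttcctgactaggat
Mmp10: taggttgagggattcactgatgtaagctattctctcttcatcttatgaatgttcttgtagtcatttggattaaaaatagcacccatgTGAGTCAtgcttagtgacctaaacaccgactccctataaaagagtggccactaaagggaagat

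The comparison of KO with WT asked which of these genes differ in early G1 between the genotypes. The largest changes among the tested members were rises of Adam23, Adamts5, Mmp13, Mmp17 and Adamts1 by between 3.98-fold and 6.94-fold. The order below Adam23 moved with the processing: Mmp17 was at 1.39 on the log2 scale with a normexp offset of 50, beside 1.47 for Adam19, and Mmp13 at 1.48 with the mean of its probes, beside 1.52 for Adam19. Timp2 and Timp3 rose as well, by 2.02-fold and 1.56-fold. Mmp11 and Adam17 fell by small amounts, and the gelatinase Mmp2, its activator Mmp14 and the inhibitor Timp1 did not pass the test. Values are log2 intensities after background correction and quantile normalization, a gene is represented by its brightest tested probe, and a change is KO minus WT on the log2 scale from limma, with the Benjamini-Hochberg adjusted p over all 12040 tested probes and a threshold of 0.05.

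Of the 69 genes, 28 had a probe that was above background on 4 or more of the 8 arrays and were tested, and 41 were not. Of those 28, 13 rose, 2 fell and 13 did not pass, so 53.6% passed, against 57.6% of all 8302 tested genes. The share that rose was 46.4%, against 26.9% of all tested genes, and the share that fell was 7.14%, against 30.7%. Their median log2 change was 0.23, beside -0.02 over all tested genes. Fitted changes of at least 2-fold were counted for 8 members upwards and 0 downwards, where 5.85% of all tested genes rose and 5.38% fell by that much. With Adam33, which was above background on no WT array, at its bound, the first count was 7. With bounds used in the same way, 434 of all 8302 tested genes rose and 408 fell by at least 2-fold. The groups did not overlap for 15 of the 28 members, against 53.5% of all tested genes. All 4 KO arrays lay above all 4 WT arrays for 13 of them and below for 2, against 24.6% and 28.9% of all tested genes. Adam33 entered the test through the KO arrays alone, so it had to differ, and these counts hold only for members above background. Within a genotype the median SD of a member was 0.11 in KO and 0.12 in WT, close to the 0.10 in KO and 0.11 in WT over all tested genes.

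**Figure D1:**
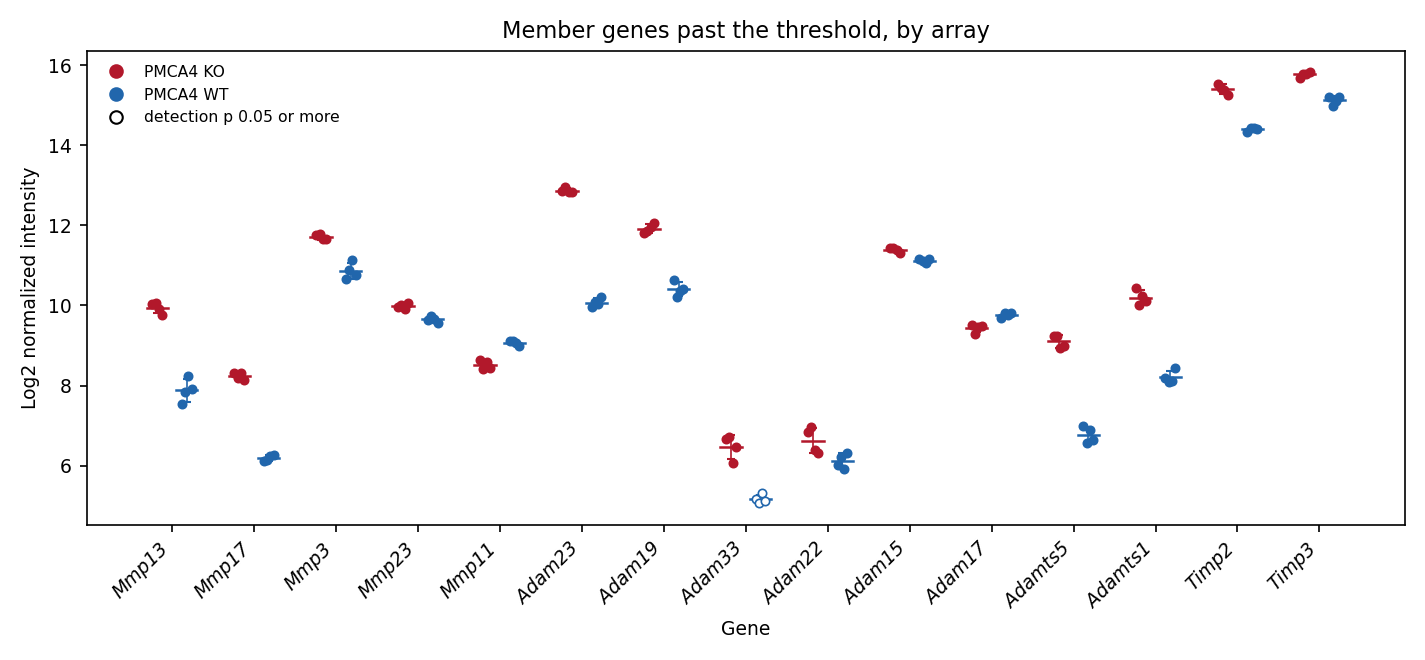
Log2 normalized intensity (vertical axis) of the 15 member genes past the threshold, 1 point per array, KO left of WT, with a bar for the mean, whiskers for the SD (n = 4 each) and open points where the detection p was 0.05 or more. The points of the genotypes are separate for all 15 genes, most widely for Adam23, Adamts5, Mmp13, Mmp17 and Adamts1, while those of Adam22 nearly touch.

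Other features of the arrays moved with genotype as well. Of 10 markers of adventitial fibroblasts, 9 were on the array and 8 were tested, and all 8 rose. Among all tested genes 26.9% rose and 30.7% fell, and each marker list below stands beside the same shares. The fibroblast markers had a summed linear intensity of 32237 to 34704 on KO arrays and 2788 to 3087 on WT arrays. Of 10 smooth muscle markers 7 were tested, of which 6 rose and 1 fell, with sums of 67978 to 71340 on KO arrays and 35313 to 40891 on WT arrays. Acta2, Tagln, Smtn and Lmod1 were above background on all 4 WT arrays. Acta2, smooth muscle actin, read 15.89 to 15.97 in KO and 14.99 to 15.20 in WT, and Smtn, smoothelin, was the marker that fell. Myh11, Mylk and Actg2 were above background on 4 KO and 0 WT arrays, and Cnn1 on 0 arrays of either genotype. Among leukocyte markers Ptprc, Adgre1, Itgam and Cd79a were above background on 0 arrays, while S100a8, Lyz2 and Cd3e were detected on KO arrays only. Cd14 was above background on all 8 arrays and was 3.34-fold lower in KO (limma adjusted p = 1.88e-06). Of the 10 leukocyte markers 4 were tested, 3 rising and 1 falling, but the 3 entered the test through the KO arrays alone and so had to differ, as did Myh11, Mylk, Actg2, the fibroblast marker Lum and the osteoblast marker Bglap. The leukocyte sums were 648 to 770 on KO arrays and 453 to 554 on WT arrays. The chondrocyte and osteoblast markers had 3 tested members and all 3 rose, with sums of 832 to 950 in KO and 524 to 677 in WT, and the endothelial markers had 2, of which 1 rose and 1 fell, with sums of 543 to 551 in KO and 491 to 517 in WT. The part of these differences in the protease and Timp results was not tested. In RNA from whole samples, more cells of a type and more RNA per cell cannot be told apart. The only Atp2b4 probe above background averaged 6.95 ± 0.27 in KO and 6.89 ± 0.14 in WT (SD, n = 4 each), with a log2 difference of 0.06 (limma adjusted p = 0.719), so direction here rests on the labels.

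Secreted collagenase and stromelysin genes, which lie in the run on chromosome 9, passed the test in part. Mmp13, the main interstitial collagenase of the mouse, had log2 intensities of 10.04, 10.07, 9.92 and 9.76 on KO arrays, against 7.53, 7.83, 8.25 and 7.91 on WT arrays. Every KO array lay above every WT array, by a margin larger than the range within either genotype. The change was 2.07 with a standard error of 0.14, or 4.19-fold (95% confidence interval of the log2 change 1.76 to 2.38, limma adjusted p = 7.75e-07). A second Mmp13 probe was above background on 0 WT arrays and 4 KO arrays, and was at least 1.37-fold higher in KO, a bound that sets each WT array to the lowest intensity detected on it where the probe was below that. The remaining Mmp13 probe was not above background on any array.

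Mmp3, stromelysin 1, which cuts proteoglycans and activates other Mmp precursors, had values of 11.77, 11.79, 11.66 and 11.65 in KO, against 10.67, 10.89, 11.13 and 10.77 in WT. The genotypes did not overlap, and the WT arrays were the more scattered. Its rise was 0.85 with a standard error of 0.10, or 1.80-fold (limma adjusted p = 4.31e-05), and the other 2 probes gave 0.99 and 1.03. Mmp10, stromelysin 2, is the closest relative of Mmp3 in this run. Its values were 8.60, 8.64, 8.66 and 8.47 in KO, against 7.67, 8.19, 8.63 and 8.46 in WT. Here the KO arrays were tightly grouped. WT replicate 3, at 8.63, lay among them, and WT replicate 4, at 8.46, was just below the lowest KO value. The difference of 0.35 (95% confidence interval -0.04 to 0.74, limma adjusted p = 0.113) did not pass. Without WT replicate 1 it was 0.16 (adjusted p = 0.215), and without WT replicate 3 it was 0.48 and passed (adjusted p = 0.0315), with 0.0315 to 0.215 over its alternatives.

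Mmp1a, a mouse counterpart of the human interstitial collagenase, was measured at 7.25, 6.61, 6.77 and 6.73 in KO, against 6.57, 6.63, 7.0 and 6.74 in WT. The genotypes overlapped, though KO replicate 1 was above every WT array and WT replicate 1 below every KO array, and its 2 probes differed in sign, with changes of 0.10 and -0.19, neither of which passed (adjusted p = 0.563 and 0.308). Its near copy Mmp1b, the metalloelastase Mmp12, the neutrophil collagenase Mmp8, the enamel protease Mmp20 and the matrilysin Mmp7 lie in the same run and were above background on 0 arrays, with lowest detection p-values of 0.619, 0.195, 0.435, 0.119 and 0.721. Mmp27, the remaining gene of the 10, was not analysed here. Of the 4 detected genes of the run, Mmp13 and Mmp3 rose and Mmp1a and Mmp10 did not pass. Whether the changes of these 4 genes differ from each other was not tested.

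**Figure D2:**
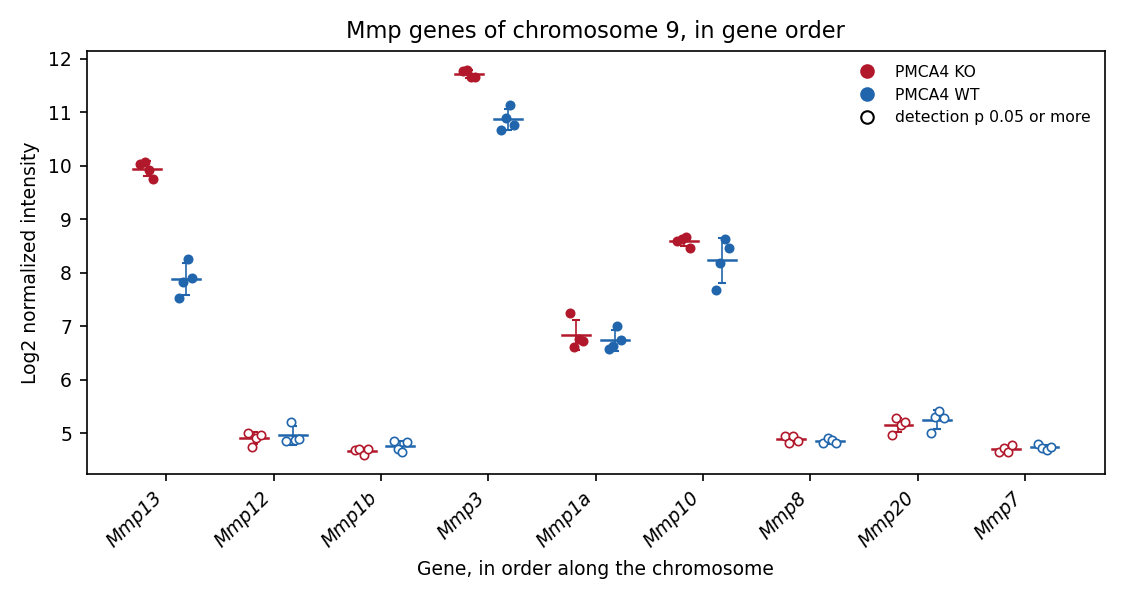
Log2 normalized intensity (vertical axis) of 9 Mmp genes of chromosome 9 in gene order, 1 point per array, KO left of WT, with mean and SD (n = 4 each), for the probe of each gene detected on most arrays. Mmp13, Mmp3, Mmp1a and Mmp10 are detected on all 8 arrays, and the 5 other genes have open points only, which mark a detection p of 0.05 or more.

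In the windows from 250 bases before to 50 after each RefSeq start, TGANTCA begins 35 bases before the start of Mmp13, 46 before that of Mmp3, 73 before that of Mmp1a and 63 before that of Mmp10. Among genes of the run that were not above background, 4 of 5 hold it too. It occurs in 7.81% of all 32851 windows and in 5 of the 22 windows of tested members, the fifth being one of 3 windows of Adam19. Those 22 windows belong to 19 of the 28 tested members. Adam33, Adam4, Adam9, Adamts4, Adamts5, Adamts7, Mmp16, Mmp17 and Mmp2 had 0 windows and were not searched for any motif. The motif AGGAAG, bound by Ets factors, was searched on both strands and occurs in 35.4% of all windows and in 9 of the 22. TATAAA, the letters of the TATA box, was also searched on both strands and at any position of the window. It occurs in 13.6% of all windows and in 5 of the 22, those of Mmp13, Mmp3, Mmp1a, Mmp10 and Adamts1. All 4 detected genes of the run thus hold these letters as well as TGANTCA. The match begins 16 bases before the annotated start in Mmp13, 7 in Mmp3, 28 in Mmp1a and 29 in Mmp10. In the 4 stretches shown above no match of one motif overlaps a match of another. A match is a run of letters and shows no binding.

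Of the 2 gelatinase genes only Mmp2 was tested, and it did not pass. Mmp2, which cuts basement membrane collagen, read 13.55, 13.46, 13.50 and 13.70 in KO, against 13.65, 13.71, 13.40 and 13.56 in WT. The arrays of the genotypes were interleaved, and the log2 difference of -0.02 had a 95% confidence interval of -0.21 to 0.16 (limma adjusted p = 0.818). The second gelatinase, Mmp9, had a detection p under 0.05 on 1 WT array (0.0188) and on 0 KO arrays, and was not tested.

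Membrane-bound Mmp genes split in the same way. Mmp17, anchored to the membrane by a lipid (GPI) tail, was measured at 8.31, 8.18, 8.32 and 8.14 in KO, against 6.13, 6.15, 6.25 and 6.28 in WT. The difference between genotypes was far larger than the spread within them, at 2.03 with a standard error of 0.07, or 4.10-fold (limma adjusted p = 5.41e-09). The WT arrays were close to background, with detection p-values of 0.0138 to 0.0226, and the change ran from 1.39 to 2.07 over the alternatives. Mmp23, an unusual member without a typical propeptide switch, read 9.95, 10.02, 9.90 and 10.05 in KO, against 9.64, 9.75, 9.66 and 9.56 in WT. That is a small rise of 0.33 without overlap (standard error 0.06, limma adjusted p = 0.00165).

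Mmp14, the transmembrane activator of Mmp2, gave 13.53, 13.47, 13.53 and 13.66 in KO, against 13.59, 13.53, 13.55 and 13.29 in WT. These arrays overlapped, and the log2 difference of 0.06 had an interval of -0.12 to 0.24 (limma adjusted p = 0.562). Mmp16, a close relative of Mmp14, gave 8.44, 8.47, 8.47 and 8.47 in KO, against 8.22, 8.44, 8.63 and 8.36 in WT. Its KO arrays fell inside the WT range, with a difference of 0.05 and an interval of -0.14 to 0.24 (limma adjusted p = 0.625). The transmembrane Mmp24 was above background on 0 arrays.

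Of the remaining Mmp genes, Mmp11 was the only tested one that fell. Mmp11, stromelysin 3, which is activated inside the cell by furin, had values of 8.63, 8.41, 8.58 and 8.43 in KO, against 9.12, 9.12, 9.06 and 8.99 in WT. All KO arrays were lower, by 0.56 on average with a standard error of 0.07, or 1.47-fold (limma adjusted p = 7.89e-05). Mmp28, epilysin, read 6.75, 6.42, 6.31 and 6.38 in KO, against 6.46, 6.61, 6.60 and 6.74 in WT. KO replicate 1 held the highest value of all, and the difference of -0.14 did not pass (limma adjusted p = 0.275). Without KO replicate 1 it was -0.23 and passed (adjusted p = 0.0361, against 0.0361 to 0.528 over its alternatives). Mmp19 was detected on 2 KO and 0 WT arrays (lowest detection p 0.0125) and Mmp21 on 0 arrays. In all, 4 of 11 tested Mmp genes rose, 1 fell and 6 did not pass, with a median change of 0.10, and 9 further Mmp genes were not tested. The share of the 11 that passed was 45.5%, against 57.6% of all tested genes.

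Among the Adams the largest change belonged to a member that does not cut proteins. Adam23, which lacks the catalytic residues and acts in cell adhesion and as a receptor of Lgi proteins in nerve tissue, read 12.85, 12.96, 12.82 and 12.84 in KO, against 9.95, 10.09, 10.04 and 10.21 in WT. The gap between genotypes was many times the range within either, at 2.80 with a standard error of 0.07, or 6.94-fold (limma adjusted p = 6.66e-10). Its other 2 probes rose by 2.85 and 2.15, the last being detected on 3 of 4 WT arrays. Among all 8302 tested genes it had rank 68 by size of rise. Adam22, its catalytically inactive relative and also an Lgi receptor, averaged 6.63 ± 0.31 in KO and 6.12 ± 0.19 in WT (SD, n = 4 each). It rose by 0.51 (limma adjusted p = 0.016), although the lowest KO array and the highest WT array both read 6.33, and across the alternatives the change ranged from 0.29 to 0.61. Adam11, a further relative of this kind, was above background on 0 arrays.

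Adams with an active protease moved in both directions. Adam19, which releases neuregulin, read 11.81, 11.85, 11.96 and 12.05 in KO, against 10.63, 10.21, 10.36 and 10.41 in WT. The genotypes were well apart, with a rise of 1.52 and a standard error of 0.09, or 2.86-fold (limma adjusted p = 4.72e-07). Adam33, a mesenchymal gene linked to airway disease in humans, read 6.66, 6.72, 6.06 and 6.46 in KO, against 5.16, 5.08, 5.31 and 5.12 in WT. No WT array was above background, so only a bound is known, of at least 1.59-fold higher in KO (limma adjusted p = 1.85e-05), with fitted log2 changes from 0.76 to 1.45 over the alternatives.

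Adam15, which is known for roles in vessel growth, averaged 11.39 ± 0.05 in KO and 11.12 ± 0.04 in WT (SD, n = 4 each), a rise of 0.27 (limma adjusted p = 0.00238). Its second probe, like that of Mmp13, entered the test through the KO arrays alone, so it had to differ, and was at least 1.2-fold higher in KO. Adam17, the main sheddase of tumour necrosis factor and of several ligands of the EGF receptor, averaged 9.43 ± 0.10 in KO and 9.77 ± 0.06 in WT. It fell by 0.34 on the log2 scale, or 1.26-fold (limma adjusted p = 0.00196), and all 4 KO arrays were lower. Adam9 averaged 11.13 ± 0.18 in KO and 10.94 ± 0.18 in WT, a difference of 0.19 that did not pass (limma adjusted p = 0.165). Adam4, a testis gene, was detected on 1 KO and 3 WT arrays and differed by -0.09 (limma adjusted p = 0.575). Without KO replicate 1 its difference was -0.22 and passed (adjusted p = 0.043, against 0.043 to 0.989 over its alternatives).

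Of the 29 Adam genes on the array, 5 rose, 1 fell, 2 did not pass and 21 were not tested. The share of the 8 tested that passed was 75%, against 57.6% of all tested genes. This share includes Adam33, which entered the test through the KO arrays alone and so had to differ. Adam10, the other widely used sheddase, was detected on 1 WT and 0 KO arrays by its single probe, with detection p-values of 0.0251 to 0.114. Adam30 was detected on 2 KO and 1 WT arrays, and Adam5 and Adam6a on 1 KO array each. The leukocyte gene Adam8 was above background on 0 arrays, as were Adam12, Adam1b, Adam2, Adam20, Adam21, Adam24, Adam25, Adam26a, Adam28, Adam29, Adam3, Adam32, Adam34l, Adam39 and Adam7, many of which are known from testis. Their lowest detection p-values ran from 0.0551 to 0.672.

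Adamts1 and Adamts5, which cut versican and aggrecan, rose together and are direct neighbours on chromosome 16, with 0 coding genes between them. Adamts5 read 9.25, 9.24, 8.93 and 9.0 in KO, against 7.0, 6.58, 6.89 and 6.64 in WT. Adamts1 read 10.44, 10.01, 10.23 and 10.11 in KO, against 8.18, 8.08, 8.12 and 8.45 in WT. For both genes the gap between the lowest KO array and the highest WT array was wider than the range within either genotype. Adamts5 rose by 2.33 with a standard error of 0.11, or 5.04-fold (limma adjusted p = 7.45e-08). Adamts1 rose by 1.99 with a standard error of 0.11, or 3.98-fold (limma adjusted p = 1.88e-07), and its second probe by 1.64.

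The third tested aggrecanase, Adamts4, showed no such shift. It averaged 8.04 ± 0.07 in KO and 8.02 ± 0.08 in WT (SD, n = 4 each), and the difference of 0.02 had an interval of -0.13 to 0.16 (limma adjusted p = 0.836). Adamts7, which cuts cartilage oligomeric matrix protein and is linked to coronary disease in humans, averaged 7.07 ± 0.20 in KO and 6.87 ± 0.16 in WT, a difference of 0.20 that did not pass (limma adjusted p = 0.163). Adamts13, which cuts von Willebrand factor, was detected on 2 KO and 3 WT arrays and differed by -0.05 (limma adjusted p = 0.765). Adamts15 was detected on 1 KO array, and Adamts3, Adamts8, Adamts12, Adamts16, Adamts17, Adamts18, Adamts19 and Adamts20 on 0 arrays (lowest detection p 0.0501). Of the 14 Adamts genes, 2 rose, 0 fell, 3 did not pass and 9 were not tested. The share of the 5 tested that passed was 40%, against 57.6% of all tested genes.

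Adamtsl proteins resemble Adamts enzymes but have no protease domain. Adamtsl4, which binds fibrillin microfibrils, averaged 9.57 ± 0.10 in KO and 9.76 ± 0.10 in WT (SD, n = 4 each). Its difference of -0.19 did not pass (limma adjusted p = 0.0588), and it passed under 6 of 18 alternatives, among them without KO replicate 3 and without WT replicate 3 (-0.23 in both, adjusted p = 0.0344 and 0.0255, against 0.0255 to 0.151 over its alternatives). Adamtsl2 was above background on 0 arrays.

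**Figure D3:**
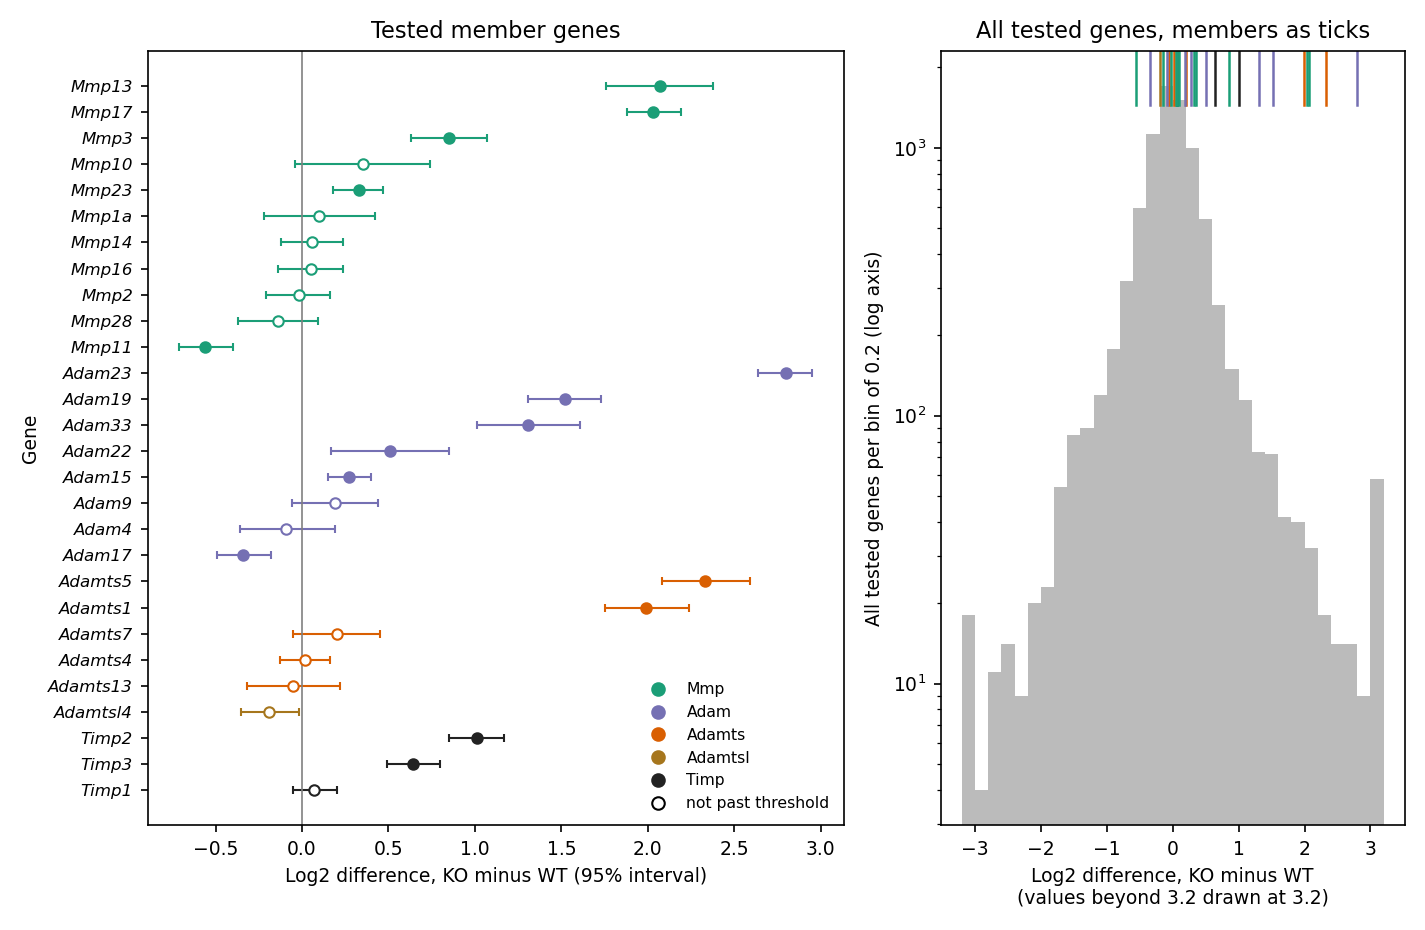
Left, log2 difference (KO minus WT, horizontal axis) with its 95% interval for the 28 tested member genes, filled where past the threshold. Right, the number of all 8302 tested genes per bin of that difference (log axis), with the members as coloured ticks at the top; fitted rises of at least 2-fold belong to 8 members, including Adam33, whose bound is 1.59-fold, and no member has a 2-fold fall.

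Of the 4 inhibitors 3 were tested, and 2 of these rose. Timp2, which also links Mmp2 to Mmp14 at the cell surface, read 15.54, 15.44, 15.39 and 15.25 in KO, against 14.34, 14.42, 14.42 and 14.40 in WT. There was no overlap, with a rise of 1.01 and a standard error of 0.07, or 2.02-fold (limma adjusted p = 1.24e-06). Timp3, which is held in the matrix and also blocks Adam17 and the aggrecanases, read 15.69, 15.77, 15.78 and 15.82 in KO, against 15.20, 14.98, 15.11 and 15.21 in WT. It rose by 0.64 with a standard error of 0.07, or 1.56-fold (limma adjusted p = 2.82e-05), and by 1.38, or 2.61-fold, at its second, dimmer probe, whose values averaged 11.74 ± 0.18 in KO and 10.35 ± 0.24 in WT. The bright Timp3 probe ranked between 15 and 22 among all probes on KO arrays and between 45 and 64 on WT arrays, and the mean of its probes gave a rise of 1.01.

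Timp1 read 15.94, 15.93, 16.01 and 16 in KO, against 15.85, 15.90, 15.93 and 15.91 in WT. At this brightest probe the ranges overlapped, and the difference of 0.07 did not pass (interval -0.05 to 0.20, limma adjusted p = 0.281). At the second probe all 4 KO arrays lay above all 4 WT arrays. Its difference of 0.16 did not pass either (interval 0.02 to 0.30, limma adjusted p = 0.0533). The deposited intensity of the brightest probe was 62185, 62482, 65344 and 65105 on KO arrays and 57974, 62162, 62949 and 61402 on WT arrays. The highest intensity of any probe was 65250 to 68070 on KO and 65079 to 67160 on WT arrays. The brightest Timp1 probe thus ranked between 1 and 13 among all probes of an array. Whether this brightness limited its change was not tested. Under cyclic loess the difference at the brightest probe was 0.17 and passed (adjusted p = 0.0268, against 0.0268 to 0.548 over its alternatives). Timp4 was above background on 0 arrays (lowest detection p 0.214).

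**Figure D4:**
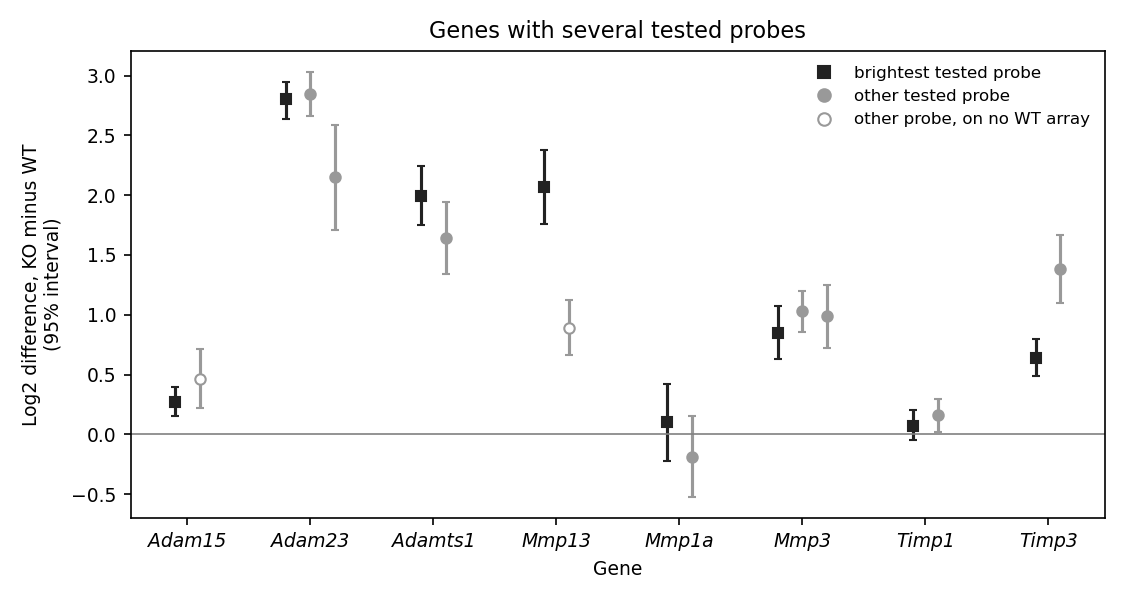
Log2 difference (KO minus WT, vertical axis) with its 95% interval for the 8 member genes with several tested probes, squares for the brightest probe, and open points for the second probes of Adam15 and Mmp13, of which only bounds are known. All probes of Adam23, Adamts1, Mmp3 and Timp3 lie above 0 and passed, with sizes of 0.64 and 1.38 for Timp3, and those of Mmp1a and Timp1 did not pass.

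Set side by side, 11 of 24 tested Mmp, Adam and Adamts genes rose, 2 fell and 11 did not pass, with a median change of 0.23. Of these 24 genes 45.8% rose and 8.33% fell, against 26.9% and 30.7% of all tested genes. Without the catalytically inactive Adam22 and Adam23, 9 of 22 rose and 2 fell (40.9% and 9.09%), with a median of 0.19. Both counts of rises include Adam33, which entered the test through the KO arrays alone and so had to differ. Of the 3 tested Timps 2 rose (66.7%, against the same 26.9%), 0 fell and 1 did not pass, with a median of 0.64. With no filter on dim probes, where all 63 Mmp, Adam and Adamts genes and 4 Timps enter, these medians were 0.02 and 0.36. By the brightest probe of a gene, rises reached 2.33 on the log2 scale for a catalytically active protease (Adamts5) and 1.01 for a Timp (Timp2), and the second Timp3 probe rose by 1.38. The enzymes nearest to Timp2 in function, Mmp2 and Mmp14, had intervals of -0.21 to 0.16 and -0.12 to 0.24, beside 0.85 to 1.17 for Timp2. Whether proteases and inhibitors changed by different amounts was not tested.

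Genes that act on these enzymes were taken from lists. Of 16 activators 7 were tested, of which 3 rose, 2 fell and 2 did not pass, so 71.4% passed, against 57.6% of all tested genes, with a median of 0.09 and changes from -0.29 to 0.39. Tspan17, a tetraspanin that guides Adam10, averaged 11.56 ± 0.07 in KO and 11.17 ± 0.11 in WT and rose by 0.39 (SD, n = 4 each, limma adjusted p = 0.00114). Plau, the urokinase that makes plasmin, rose by 0.35 (limma adjusted p = 0.000622), and Rhbdf2, which matures Adam17, fell by 0.29 with overlapping groups (limma adjusted p = 0.0453) and was detected on 2 KO and 3 WT arrays. Of 9 other inhibitors only Reck, a membrane-bound Mmp inhibitor, was tested, with a difference of -0.17 that did not pass (limma adjusted p = 0.0811).

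The RNA of known substrates moved both ways, and the amount and cleavage of their proteins were not measured. Of 26 matrix substrates 20 were tested, of which 11 rose, 5 fell and 4 did not pass (median 0.51), that is 55% higher and 25% lower, against 26.9% and 30.7% of all tested genes. Dcn, the proteoglycan decorin and also one of the fibroblast markers, averaged 14.14 ± 0.07 in KO and 7.37 ± 0.37 in WT, Eln, elastin, 5.98 ± 0.14 in KO and 10.30 ± 0.14 in WT, and Tnc, tenascin C, 12.13 ± 0.07 in KO and 9.36 ± 0.17 in WT (SD, n = 4 each). Vcan, the versican core protein cut by Adamts1 and Adamts5, was singled out after its values were seen. It averaged 7.07 ± 0.17 in KO and 8.09 ± 0.30 in WT and was 2.03-fold lower in KO (limma adjusted p = 0.000181). Of 30 genes of proteins shed by Adams 20 were tested, of which 6 rose, 8 fell and 6 did not pass (median -0.04). That is 30% higher and 40% lower, against the same 26.9% and 30.7%. Icam1, an adhesion molecule, rose by 2.73, Cx3cl1, a membrane-bound chemokine, fell by 2.04, and the receptor Notch1 fell by 1.82 on the log2 scale (limma adjusted p = 3.3e-09, 5.58e-08 and 1.78e-07).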

How the data were processed

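Samples were grouped by their titles into 4 KO and 4 WT arrays. Per the labels' protocols, a PicoPure kit yielded the total RNA, which was amplified to biotinylated cRNA for Illumina arrays. The deposited table of non-normalized signal intensities holds 25697 probes, and between 28.4% and 29.7% of values per array are below 0, so background had been subtracted. Each deposited intensity comes with its detection p-value. A second deposited table holds log2 values, whose columns have equal sorted values to within 0.000531, and served as an alternative. The software behind both tables is not given in the sources used. No array repeated another.

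Intensities were processed with neqc of limma 3.58.1 (R 4.3.3), which infers background from the detection p-values, with an offset of 16, quantile normalization and log2. Tested were 12040 probes above background (detection p under 0.05) on 4 or more arrays, which stand for 8302 genes. They were fitted by lmFit and eBayes with no block, with a threshold of 0.05 after Benjamini-Hochberg adjustment over all of them. Single-gene adjusted p-values come from this limma fit, which was tested on simulated data. Names come from the platform annotation, where 23978 probes had 1 symbol, 0 several and 1719 none, checked by gene identifier against GRCm38.p6, which matched 23962. A bound on a fold sets arrays below background to the lowest detected intensity. Each tested member is named, with array values for all Mmp and Timp genes and for other members past the threshold by at least 0.58. The number of arrays limits the precision. Members, lists and motifs were chosen with earlier results of these data known. Same-numbered arrays did not deviate together (r from -0.03 to 0.09 in 4 pairs). Figures used matplotlib 3.10.9.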

Additional observations from a re-analysis of the deposited data

How the results depend on the processing

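The 15 members past the threshold kept their call and direction in every one of the 18 alternatives in which they were tested; a detection p under 0.01 left out Adam33, Adam4 and Adamts13. Members called higher numbered 12 to 15 against 13, and those called lower 2 to 4 against 2, the 4 without KO replicate 1, where Adam4 and Mmp28 joined. The count of lower calls was 2 to 4 over the 8 fits that leave out 1 array. With the replicate number as a block, 13 members were higher and 2 lower, and over all probes 3075 were higher and 3466 lower, against 3168 and 3609 without it. The titles do not say that a number marks a shared animal or batch.

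The Timp median of 0.64 was 0.55 with median scaling, 0.36 without the filter on dim probes and 1.01 with the mean of probes per gene, and the Mmp, Adam and Adamts median of 0.23 was 0.02 without the filter. Both shifts without the filter follow from further genes near background, 1 for the Timp median (Timp4) and 39 for the other. With Adamtsl2, which is in neither median, these are the 41 genes that were not tested. Of these 41, 2 passed without the filter, Adam5 (0.42) and Adam34l (0.25), which were detected on 1 and 0 KO arrays.

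Some members that did not pass changed sign. Mmp1a was at -0.04 with the mean of probes and Mmp2 at 0.01 with cyclic loess. With 1 array left out, differences ran from -0.04 to 0.19 for Mmp1a, -0.09 to 0.02 for Mmp2, -0.01 to 0.09 for Mmp14, -0.01 to 0.13 for Mmp16, -0.02 to 0.04 for Adamts4 and -0.15 to 0.04 for Adamts13. The cause was not tested. Signal close to background limits the values of Adam33, Adam22, Adam4 and Adamts13, and the WT values of Mmp17. Timp1 and the brighter Timp3 probe, which sets the Timp median, were among the brightest probes of the arrays. So was Timp2 on KO arrays, where it ranked between 27 and 43 among all probes. Whether brightness limited their changes was not tested.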
